A study of Mus musculus with 24 samples.

Results

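The messenger RNAs of 10 circadian clock genes were followed in inguinal white fat, a depot under the skin, of 24 young mice. The members were the rows of the deposited gene table with the symbols Per1, Per2, Per3, Cry1, Cry2, Nr1d1, Nr1d2, Dbp, Tef and Ciart. All 10 symbols were found among 16118 genes, and all 10 passed the filter on low counts. They were chosen by name and not by their values. Each mouse gave 1 poly(A) RNA library, and the labels give each an animal number of its own, so replicates are separate animals. Groups of 4 males and 4 females were taken at postnatal day 21 (labelled p21). At day 28 there were 4 males and 4 females after standard weaning (SW, parted from the mother at day 21), and 4 males and 4 females after delayed weaning (DW, left with the mother). The descriptions of the day 21 libraries also carry the label SW, so setting DW against day 21 crosses that label as well as age. Strain and the clock hour of tissue collection are not given in the sources used here, and both weaning groups at day 28 were set against the same day 21 animals.

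The mammalian clock is a feedback loop. The activators CLOCK, or its relative NPAS2, and BMAL1 (gene Arntl) bind E-box elements and switch on the Per and Cry genes, whose proteins then repress the activators. The same activators drive Nr1d1 and Nr1d2, which encode the REV-ERB nuclear receptors that repress Arntl, and Dbp and Tef, whose PAR bZIP proteins bind D-box elements in further target genes. In fat, as in liver, these messages rise and fall over the day, peaking at different hours, and meal times can shift them, so a single time of sampling reads a phase as well as a level.

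The promoter windows that carried motif matches are shown as a description. A relation between the matches and the variation across animals described later was not tested. Tef and Ciart held CACGTG and Per3 held TTANGTAA, while Dbp, which varied with them, held no match in its window. Cry1, which ran opposite to Dbp, held CACGTG. Sequence outside the windows was not searched. Windows of 300 bases, from 250 before to 50 after a gene's start, came from RefSeq on build GRCm38.p6. They matched 9 of the 10 members in 11 windows, with no window for Per2. The 3 short motifs below were searched on both strands. The E-box CACGTG was in at least 1 window of 4 members (Per1, Cry1, Tef and Ciart), against 7.15% of 32851 promoter windows. That share is per window, whereas Per1 and Tef had more than 1 window each. The D-box TTANGTAA was in 1 member, Per3, against 2.32% of windows. The REV-ERB element TAGGTCA was in none of the members, against 2.61% of windows, and was in 1 window of Arntl. No matches of different motifs overlapped. Capitals mark the matches and the strand is that of the gene. A match is only a string of letters and was not tested for binding.

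Ciart, chr3:95882179-95882478, minus strand, CACGTG beginning 116, 58 and 44 bases before the start:
Ciart: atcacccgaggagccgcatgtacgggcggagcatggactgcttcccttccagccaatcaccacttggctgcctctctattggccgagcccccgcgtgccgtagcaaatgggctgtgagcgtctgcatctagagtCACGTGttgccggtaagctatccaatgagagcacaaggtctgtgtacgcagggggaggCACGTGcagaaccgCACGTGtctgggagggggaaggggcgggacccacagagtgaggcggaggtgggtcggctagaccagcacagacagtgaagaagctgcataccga
Tef, chr15:81811164-81811463, plus strand, CACGTG beginning 138 bases before the start:
Tef: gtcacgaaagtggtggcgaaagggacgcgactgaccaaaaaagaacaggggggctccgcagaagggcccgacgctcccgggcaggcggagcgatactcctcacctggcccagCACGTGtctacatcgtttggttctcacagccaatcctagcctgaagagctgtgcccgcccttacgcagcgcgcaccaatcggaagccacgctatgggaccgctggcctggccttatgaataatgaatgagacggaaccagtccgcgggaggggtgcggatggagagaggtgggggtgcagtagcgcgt
Cry1, chr10:85185005-85185304, minus strand, CACGTG beginning 60 bases before the start:
Cry1: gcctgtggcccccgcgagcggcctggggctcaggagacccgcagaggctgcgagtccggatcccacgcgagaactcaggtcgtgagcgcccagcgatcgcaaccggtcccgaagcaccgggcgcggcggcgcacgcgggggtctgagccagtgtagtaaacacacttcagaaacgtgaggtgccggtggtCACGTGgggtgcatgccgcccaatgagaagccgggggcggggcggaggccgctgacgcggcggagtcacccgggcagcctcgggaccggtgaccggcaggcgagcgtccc
Per1, chr11:69098699-69098998, plus strand, CACGTG beginning 166 bases before the start:
Per1: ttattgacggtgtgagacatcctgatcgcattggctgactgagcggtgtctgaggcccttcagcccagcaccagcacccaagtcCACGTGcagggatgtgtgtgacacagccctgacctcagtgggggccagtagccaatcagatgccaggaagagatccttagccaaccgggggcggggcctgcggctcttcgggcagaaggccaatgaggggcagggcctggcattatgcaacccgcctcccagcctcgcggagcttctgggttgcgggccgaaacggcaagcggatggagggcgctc
Per3, chr4:151044616-151044915, minus strand, TTANGTAA beginning 205 and 158 bases before the start:
Per3: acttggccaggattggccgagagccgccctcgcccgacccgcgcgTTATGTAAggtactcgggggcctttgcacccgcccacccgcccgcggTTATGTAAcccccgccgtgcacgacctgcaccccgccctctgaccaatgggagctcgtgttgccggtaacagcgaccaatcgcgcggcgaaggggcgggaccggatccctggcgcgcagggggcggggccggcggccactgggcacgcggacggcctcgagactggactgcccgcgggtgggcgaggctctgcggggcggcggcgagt
Arntl, chr7:113207261-113207560, plus strand, TAGGTCA 30 bases after the start:
Arntl: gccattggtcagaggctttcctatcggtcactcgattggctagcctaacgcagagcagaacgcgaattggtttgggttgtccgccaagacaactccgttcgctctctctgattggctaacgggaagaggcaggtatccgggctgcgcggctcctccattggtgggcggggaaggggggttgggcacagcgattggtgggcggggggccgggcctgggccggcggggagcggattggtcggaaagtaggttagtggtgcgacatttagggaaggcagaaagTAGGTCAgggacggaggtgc

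A second Tef window, chr15:81802423-81802722 on the plus strand, held CACGTG 127 bases before its own start. The windows of Cry2, Nr1d1, Nr1d2 and Dbp and a second window of Per1 held none of these letters.

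All 10 messages were detected in every animal. Recovered reads in the listed genes were between 57600711 and 302145813 per library, and the shallowest member value was 54 reads, for Ciart in 1 library. Libraries of 1 day 21 male (animal 53) and 1 SW male (animal 84) detected fewer genes than the rest, and with day 21 female 36 they were also left out together as an alternative. Animal 36 was not short of detected genes (16021), and this alternative was added after seeing the data. The adipocyte marker list (8 genes, among them Adipoq, Plin1 and Fabp4) summed to between 17303.7 and 29964.6 in the 24 animals with no marker at 0. Values below are the authors' normalised reads, and in bulk tissue fewer cells of a type and less RNA per cell cannot be told apart.

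Divided by exon length, mean levels over the 24 animals were highest for Nr1d1, at 48.2 units per kb, followed by Per1 (16.9), Tef (12.5), Nr1d2 (9.55), Cry2 (9.03) and Dbp (8.19). Per3 (4.22), Per2 (3.48) and Cry1 (3.37) were lower per kb, and Ciart, a transcriptional repressor of the clock activators, was lowest at 0.912. The ranges over animals overlapped for each pair of neighbours in this order except Cry1 and Ciart. Nr1d1, for example, ran from 11.9 to 90.3 units per kb and Per1 from 7.53 to 24.9. The deposited counting did not state strand use, and 3 members overlap other genes. Nr1d1 shares 1075 bases with Thra and Dbp 737 bases with Sphk2, both on the opposite strand, and the gene body of Per3 lies with 41014 bases on the same strand as Camta1, so reads of these 3 are less certain.

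Animals of the same group differed widely in these genes. The standard deviation within groups on the log2(value + 1) scale was 0.656 for Nr1d1, 0.623 for Dbp and 0.598 for Per2, above 98.9%, 98.8% and 98.6% of the 16005 genes tested, whose median was 0.211. Per1 had 0.462 (96.0th percentile), Ciart 0.387, Tef 0.349, Per3 0.340, Nr1d2 0.336 and Cry1 0.320. Cry2, the other cryptochrome repressor, was the exception at 0.168, below the median of all genes. From the lowest to the highest of the 24 animals, Per2 spanned 8.51-fold, Nr1d1 7.58-fold and Dbp 6.88-fold, while Cry2 spanned 1.68-fold. This spread set the precision of every comparison that follows.

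**Figure D1:**
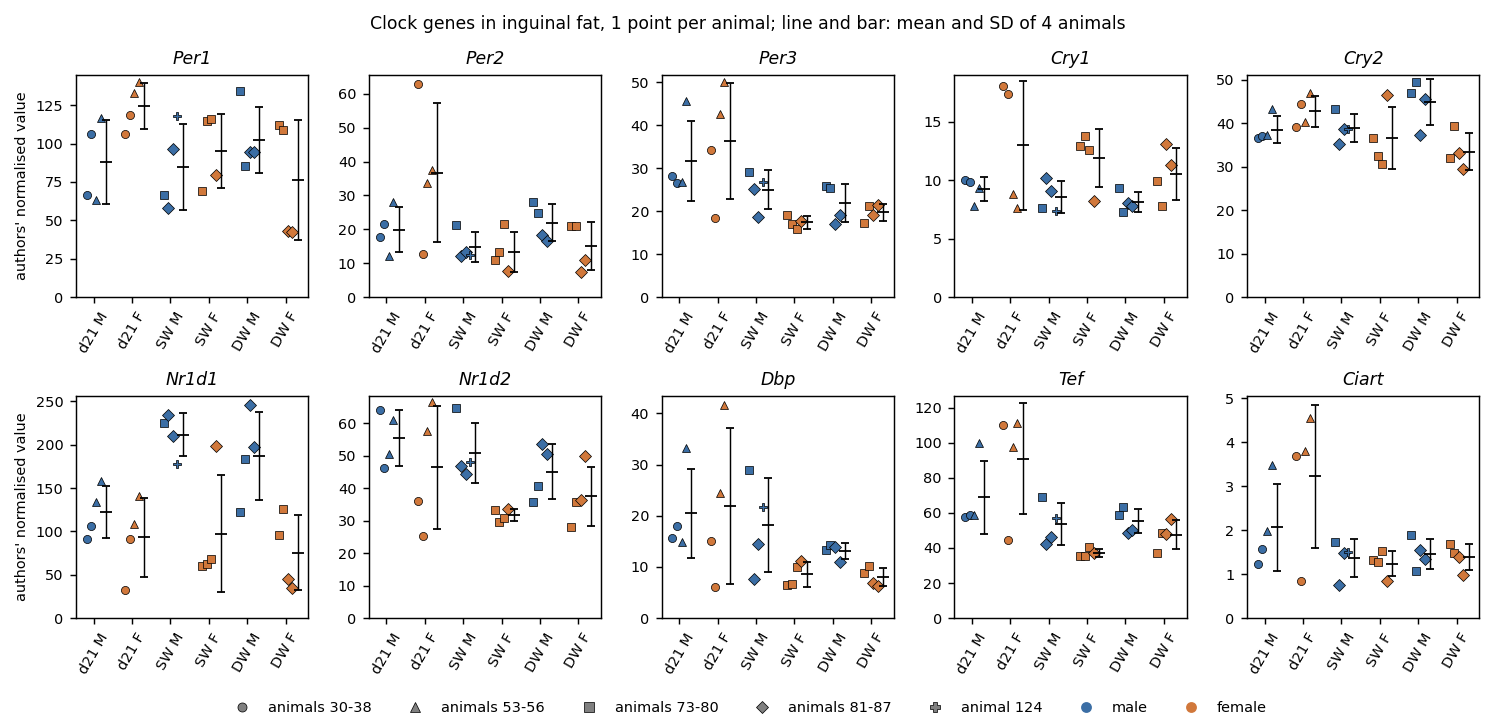
Authors' normalised value (linear axis from 0) of each of the 10 clock genes in 6 groups (d21, day 21; SW and DW at day 28; M, male; F, female), 1 point per animal with the marker giving its run of animal numbers, and a line and bar for the mean and SD of 4 animals. Day 21 females reach the highest Per2 (62.9), Per3 (50.1), Dbp (41.7), Tef (111.4) and Ciart (4.56) and also hold, in animal 36, the lowest Dbp (6.05).

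Delayed against standard weaning at day 28 addressed whether a further week with the mother changed these messages. No member was called in either sex at a limma adjusted p under 0.05 (0 of 10 in males, where 0.256% of all genes were called, and 0 of 10 in females, where 1.27% were). At an unadjusted p under 0.05 the count was also 0 in both sexes, and edgeR and DESeq2 on recovered reads called 0 as well. The 10 changes split evenly into 5 up and 5 down in each sex.

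Per2, a period gene that responds to the clock and to glucocorticoids, moved most in males. It was 21.2, 12.1, 13.2 and 12.4 in SW males and 28.1, 24.9, 18.3 and 16.6 in DW males, and the groups overlapped through SW male 78. The change was 0.55 on the log2 scale (SE 0.388, 95% interval -0.25 to 1.36, limma adjusted p 0.897). In females Per2 was 10.9, 13.3, 21.6 and 7.64 after SW and 21.0, 20.9, 7.39 and 10.8 after DW, a change of 0.13 (95% interval -0.68 to 0.94).

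Per1, the period gene most open to acute signals, was 69.3, 114.8, 116.3 and 79.4 in SW females. In DW females it was 112.0 and 108.6 in animals 76 and 77 but 43.2 and 42.3 in animals 82 and 83, so the DW females fell into a high and a low pair. The change of -0.42 (SE 0.300, limma adjusted p 0.427) had a 95% interval from -1.04 to 0.20.

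Nr1d1 divided the DW females along the same line, with 96.4 and 126.2 in animals 76 and 77 and 45.6 and 34.2 in animals 82 and 83. In SW females it was 60.4, 62.8 and 68 in animals 73 to 75 and 198.2 in animal 81. Its weaning change was -0.35 (95% interval -1.23 to 0.53) in females and -0.21 (-1.09 to 0.67) in males.

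The best bounded member was Cry2, whose weaning change lay between -0.05 and 0.45 in males and between -0.36 and 0.14 in females. Dbp, a direct read-out of the activators, was least bounded together with Nr1d1, at -0.30 (-1.14 to 0.54) in males and -0.07 (-0.91 to 0.77) in females. The intervals of Per1, Per2, Nr1d1 and Dbp reached past 1, up or down, on the log2 scale in at least 1 sex, so a change of that size lay within them. For Per3, Cry1, Nr1d2, Tef and Ciart the changes ran from -0.19 to 0.33 over both sexes.

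The sexes did not differ detectably in their weaning change for any member (0 of 10 called for the interaction by limma, and 0 at an unadjusted p under 0.05 or by edgeR or DESeq2, against 0.0187% of genes called). The interaction was largest for Per1 at -0.73 (SE 0.424, limma adjusted p 0.802). DW and SW animals came from 2 runs of animal numbers, 73 to 80 and 81 to 87, with SW male 124 apart. Within the second run the female Nr1d1 change was -2.30, with 2 DW and 1 SW animal, and within the first it was 0.78, with 2 DW and 3 SW animals. Per1 in females changed by 0.18 in the first run and -0.88 in the second. Per2 was up in all 4 within-run comparisons, by 0.21 to 0.49.

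The rest of the pathway gave the same count. Of the lists of clock activators, other clock repressors and output factors, kinases and ubiquitin ligases, clock-controlled genes, glucocorticoid response genes, immediate early genes and feeding and fasting genes, none had a called gene in either sex for weaning. The activator Arntl changed by 0.29 (SE 0.254) in males and -0.27 (SE 0.254) in females, Clock by 0.15 and 0.30, and Npas2 by 0.11 and -0.61, all not called.

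**Figure D2:**
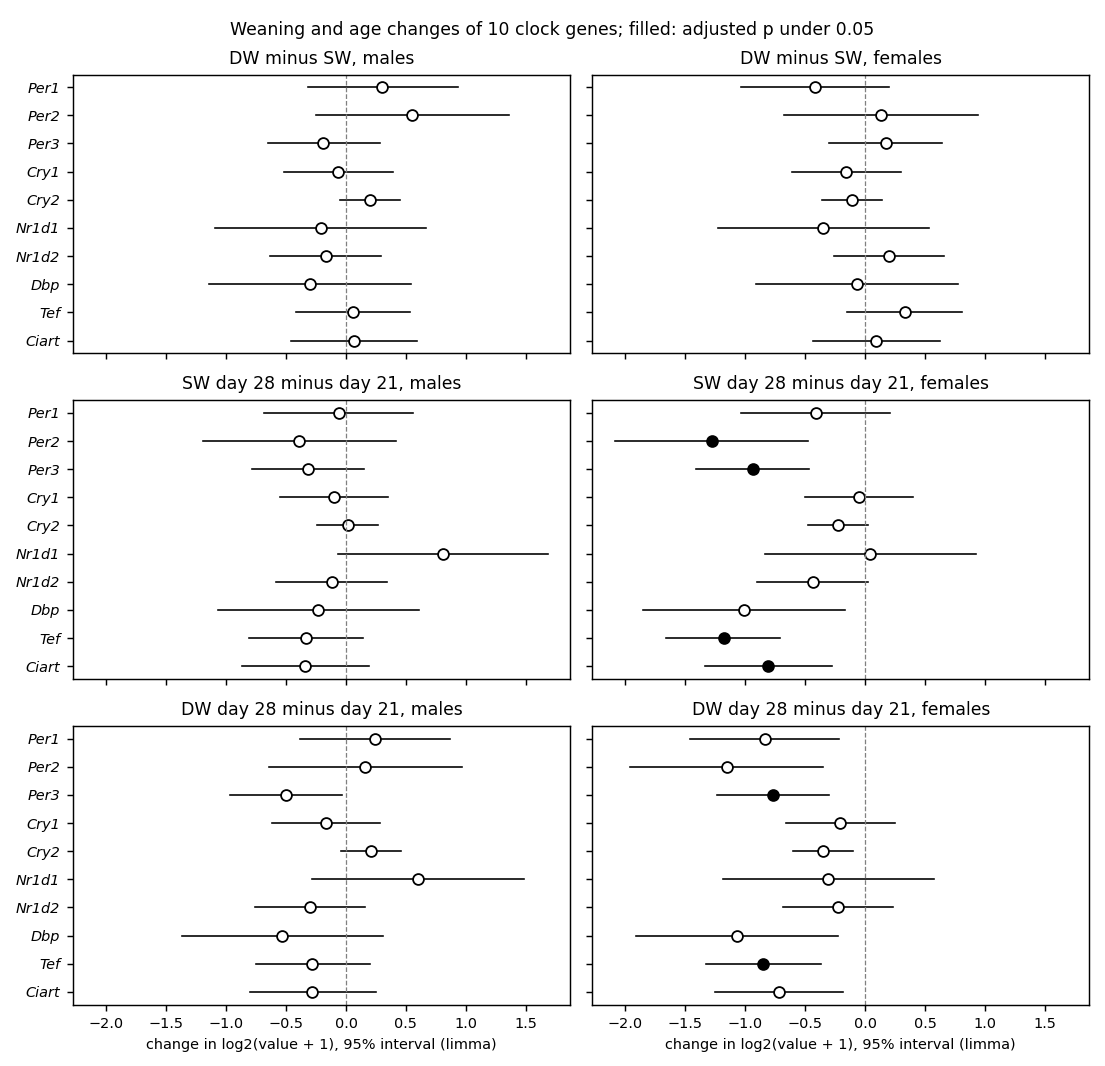
Change in log2(value + 1) with its 95% interval from limma (x axis) for the 10 members (y axis) in 6 comparisons; filled points had a limma adjusted p under 0.05. Filled points appear only in the day 28 minus day 21 panels of females, 4 after SW and 2 after DW, and all 6 lie below 0.

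From day 21 to day 28 some of the clock genes fell in females. After SW, 4 of 10 members were lower in females (4.23% of all genes were called lower, 11.6% in either direction) and none was higher. These were Per2, Per3, Tef and Ciart. After DW, 2 of 10 were lower (6.16% lower, 12.1% in either direction), Per3 and Tef, and 7 of 10 had an unadjusted p under 0.05. The share of all genes with an unadjusted p under 0.05 was not worked out in any comparison. Counts of members at that threshold, here and below, therefore have no background to be set against. The median change of the 10 was -0.62 after SW, where that of all genes was 0.012, and -0.74 after DW, with 9 and 10 of the 10 below 0.

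Tef, a PAR bZIP activator of D-box genes, fell most clearly. It was 110.2, 44.7, 97.7 and 111.4 in day 21 females, 35.7, 35.5, 40.5 and 37.4 in SW females and 36.9, 48.8, 47.9 and 56.8 in DW females. The SW females all lay below all day 21 females, whereas DW females overlapped them because of animal 36. The change was -1.18 (SE 0.229, limma adjusted p 0.0013) after SW and -0.85 (SE 0.229, limma adjusted p 0.0183) after DW.

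Per3, a period gene with the D-box letters shown above, was 34.2, 18.5, 42.7 and 50.1 in day 21 females. It was 19.2, 16.9, 15.8 and 17.6 in SW females and 17.2, 21.3, 19.0 and 21.4 in DW females, so 3 of 4 day 21 females were above every day 28 female. It changed by -0.94 (SE 0.226, limma adjusted p 0.00744) after SW and by -0.77 (SE 0.226, limma adjusted p 0.0285) after DW.

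Per2 was 62.9, 12.7, 33.8 and 37.4 in day 21 females, again with animal 36 low, against at most 21.6 in SW females. It changed by -1.28 (SE 0.388, limma adjusted p 0.0331) after SW. After DW the change of -1.15 (limma adjusted p 0.0553) was not called by limma, whereas edgeR and DESeq2 called Per2.

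Ciart was 3.68, 0.856, 3.81 and 4.56 in day 21 females and 1.32, 1.27, 1.53 and 0.845 in SW females. Its change of -0.81 after SW (SE 0.255, limma adjusted p 0.0409) was called, and the change of -0.72 after DW (limma adjusted p 0.068) was not. After DW it was called by DESeq2 and not by edgeR. The low level of Ciart means that the log2(value + 1) scale understates these changes.

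Dbp had a mean of 21.8 ± 15.2 in day 21 females, 8.55 ± 2.36 in SW females and 8.04 ± 1.79 in DW females (SD, n = 4 each). The 4 day 21 females had 15.1, 6.05, 24.5 and 41.7, so animal 36 lay below all 4 SW and all 4 DW females and the other 3 above them. The changes of -1.01 (SE 0.405, limma adjusted p 0.12) and -1.07 (SE 0.405, limma adjusted p 0.0865) were not called by limma. On recovered reads Dbp was called in both comparisons by edgeR, with 1472 genes called after SW and 1666 after DW. DESeq2 also called it in both, with 1995 and 2376 genes called. The call of Dbp thus depended on the test.

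With animals 53, 84 and 36 left out, 6 members were called after SW (Per2, Per3, Nr1d2, Dbp, Tef and Ciart) and 5 after DW (Per2, Per3, Dbp, Tef and Ciart), with 2044 and 1816 of 16005 genes called. Animal 36 was the day 21 female lowest in these 6 genes, so leaving it out makes a fall easier to call. Leaving out animal 36 alone called the same members, with 1603 and 1377 genes called. These counts are therefore no separate support for a fall. In the authors' deposited table, 6 members had an adjusted p under 0.05 between day 21 and SW females, where 23.9% of genes did, and 7 between day 21 and DW females, where 27.3% did.

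Per1, Cry1, Cry2, Nr1d1 and Nr1d2 were not called in females after either weaning. Per1 was 106.4 to 139.9 at day 21 and 42.3 to 112.0 after DW (change -0.84, limma adjusted p 0.0705). Cry1, a strong repressor of the activators, was 18.0 and 17.4 in day 21 females 30 and 36 but 8.81 and 7.63 in females 55 and 56, with changes of -0.05 after SW and -0.21 after DW. Nr1d1 changed by 0.04 after SW and -0.31 after DW.

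In males no member was called over the same week, 0 of 10 after SW (11.9% of all genes) and 0 of 10 after DW (15%). At an unadjusted p under 0.05 the counts were 0 and 1, and both edgeR and DESeq2 called 0. The REV-ERB gene Nr1d1 stood out by its values. It was 91.4, 106.4, 133.5 and 158.2 in day 21 males and 224.7, 234.0, 209.5 and 177.5 in SW males, with no overlap, a change of 0.81 (SE 0.423, 95% interval -0.07 to 1.68, limma adjusted p 0.227). In DW males it was 122.5, 183.9, 245.7 and 197.5, a change of 0.60 (limma adjusted p 0.361) with overlap. When only these 2 groups entered the fit, Nr1d1 was called after SW.

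Per3 was 28.1, 26.5, 26.7 and 45.7 in day 21 males and 25.8, 25.3, 17.0 and 19.2 in DW males, without overlap, and changed by -0.50 (SE 0.226, limma adjusted p 0.139). Dbp likewise did not overlap between day 21 males (14.9 to 33.3) and DW males (10.9 to 14.3), with a change of -0.53 (limma adjusted p 0.401). The share of all genes whose groups do not overlap was not worked out in any comparison. A lack of overlap is therefore given for members only as a description. Tef changed by -0.33 after SW and -0.28 after DW in males, both not called.

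A difference between the sexes in the change with age was tested as an interaction. It was called for 0 of 10 members after SW (1.03% of genes) and 0 of 10 after DW (0.0687%). At an unadjusted p under 0.05 it was 1 and 3 members, and edgeR and DESeq2 called 0. The female change of Tef differed from the male one by -0.85 after SW (SE 0.325, limma adjusted p 0.386), and was called without day 21 female 36. After DW the differences were -1.32 for Per2 (limma adjusted p 0.243), -1.08 for Per1 (0.221) and -0.56 for Cry2 (0.157). The fall called in females and not in males is therefore not shown to differ between the sexes.

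Other genes of the clock moved in females as well. Hlf, the third PAR bZIP gene, was the 1 called of 4 other repressors and output factors, and fell by 1.17 after SW (limma adjusted p 0.00328) and by 1.06 after DW (limma adjusted p 0.00823). Of 6 clock-controlled genes 2 fell after both weanings. Usp2, a deubiquitinase, changed by -0.99 and -1.17 (limma adjusted p 0.00961 and 0.00358). Nampt, the rate-limiting enzyme of NAD salvage, changed by -0.95 and -0.86 (limma adjusted p 0.000244 and 0.00105).

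Among 6 clock activators only Npas2 was called in SW females, in the upward direction. Npas2 was 2.74, 11.3, 1.89 and 1.93 in day 21 females, with animal 36 high where its Dbp, Tef and Per2 were low, and 11.1, 12.4, 10.1 and 13.3 in SW females. It rose by 1.51 (SE 0.355, limma adjusted p 0.00634), a call that edgeR did not give. After DW its change in females was 0.90 (limma adjusted p 0.102). Arntl changed by 0.53 (limma adjusted p 0.201) and 0.26, and Clock by 0.12 and 0.42, in SW and DW females.

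In males the pathway gave these calls. Among the activators Rora, which encodes a nuclear receptor that binds the same element as REV-ERB, rose by 0.63 after SW (limma adjusted p 0.0476) and by 0.74 after DW (limma adjusted p 0.0189). Btrc, which encodes a ubiquitin ligase subunit that marks PER proteins for decay, was the 1 called of 7 kinases and ligases and rose by 0.32 and 0.44. None of the 4 other repressors and output factors and none of the 6 clock-controlled genes was called in males. For the interaction of sex with age, 0 genes of the activator, kinase and ligase, other repressor and clock-controlled lists were called after SW or DW by limma.

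The glucocorticoid list had 10 genes, Per1 among them. In SW females 2 fell, Fkbp5 by 1.25 (limma adjusted p 0.0224) and Cdkn1a by 0.75, and in DW males Fkbp5, a chaperone induced by glucocorticoids, rose by 1.30 (limma adjusted p 0.0175). None was called in SW males or DW females, and no immediate early gene of 10 was called with age. Of 12 feeding and fasting genes, 5 rose in SW males, 5 rose and 1 fell in DW males, 3 rose in SW females, and 1 rose and 1 fell in DW females. Scd1, a fatty acid desaturase of fat synthesis, rose in all 4 comparisons by 1.85 to 1.98. Of all genes, 11.9% were called in SW males and 15% in DW males, in either direction. In SW and DW females these shares were 11.6% and 12.1%. The same shares are the background for the other list and marker counts with age. The share called higher alone is not given, so the list counts are descriptions.

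Markers of other cells moved with age in females beside these changes. The mammary epithelial list summed to 41.6 to 159.4 in day 21 females, 257.3 to 355.9 in SW females and 98.3 to 215.0 in DW females, and 6 and 1 of its 8 genes rose. The skeletal muscle list summed to 5.8 to 1625.6, 370.5 to 3300.0 and 4.2 to 2034.6 in the same groups, with no marker at 0. The erythroid list summed to 445.3 to 625.3 at day 21, 171.3 to 265.6 after SW and 90.2 to 253.3 after DW, with 3 and 5 of 5 genes lower. The lymph node list, at 309.3 to 441.6, 300.6 to 512.8 and 356.2 to 459.4, had 1 of 8 genes lower in each. Tissue scores were the mean log2(value + 1) of the skeletal muscle, mammary epithelial and lymph node lists. The erythroid and adipocyte lists were not among them. With tissue scores as covariates 1 member (Tef) was called after SW, where 444 of 16005 genes were called in place of 1860. Per2 then changed by -1.55 and Per3 by -0.84, neither called. After DW 7 members were called, with 2248 genes in place of 1938. The part of these cells in the changes was not tested.

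In males the muscle markers moved most. The skeletal muscle list summed to 5.0 to 555.3 in day 21 males, where 1 of its 8 genes was at 0 in at least 1 animal, 443.1 to 6644.2 in SW males and 328.8 to 7041.7 in DW males. After both weanings 7 of 8 genes rose, with a list median of 5.46 and 5.14 on the log2 scale. The erythroid list summed to 289.7 to 897.7, 94.0 to 287.4 and 101.3 to 184.5 in the same groups, with 4 and 3 of 5 genes lower. The lymph node list, at 369.3 to 692.7, 362.0 to 566.4 and 338.7 to 425.4, had 2 and 3 of 8 genes lower. Of 8 adipocyte markers 3 rose and 1 fell after SW and 2 rose after DW, and no mammary marker was called. With tissue scores as covariates 0 members were called in males, with 515 and 640 genes called after SW and DW. The part of these cells in the male values, Nr1d1 among them, was not tested.

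The day 21 animals came in 2 runs of animal numbers, 30 to 38 and 53 to 56, with 2 animals of each sex in each. In females the 2 later animals had 33.1 mean Dbp against 10.6 in the 2 earlier, and 11.3 Arntl against 25.8, 8.22 Cry1 against 17.7 and 1.91 Npas2 against 7.04. Against the earlier pair alone Dbp changed by -0.19 to SW, and against the later pair by -1.82. For Tef these were -0.90 and -1.46, for Per3 -0.51 and -1.37, for Per2 -1.13 and -1.44, and for Ciart -0.40 and -1.21. All 5 were below 0 against either pair, and Dbp differed most between the pairs.

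Fitted over both sexes, no member was called between the day 21 runs (0 of 10, with 0.00625% of genes called). At an unadjusted p under 0.05 there were 7 of 10, a threshold for which the share of all genes was not worked out. Dbp was 1.01 higher in animals 53 to 56 (SE 0.345, limma adjusted p 0.227), Ciart was 0.71 and Per3 0.60 higher, and Cry1 differed by -0.61. Between the day 28 runs 0 of 10 were called (0% of genes), with 2 at an unadjusted p under 0.05, Per2 at -0.83 (SE 0.254, limma adjusted p 0.298) and Per1 at -0.48. Day 21 and day 28 animals never share a run, so a difference in sampling between runs and the change with age cannot be told apart.

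Females were compared with males at each age and weaning. No member was called at day 21 (0 of 10, with 0.356% of genes called), after SW (0 of 10, with 3.54%) or after DW (0 of 10, with 2.46%). At an unadjusted p under 0.05 there were 0, 5 and 2 members. The edgeR test called 0 in each, and DESeq2 called 0, 0 and 1. In the authors' deposited table there were 2, 6 and 2 members with an adjusted p under 0.05, a threshold passed by 10.4%, 9.21% and 19.6% of genes.

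Nr1d1 was lower in females at day 28 by its values. In SW animals it was 177.5 to 234.0 in males and 60.4, 62.8, 68 and 198.2 in females, the last overlapping the males, for a difference of -1.30 (SE 0.423, limma adjusted p 0.122). In DW animals it was 122.5 to 245.7 in males and 34.2 to 126.2 in females, a difference of -1.45 (SE 0.423, limma adjusted p 0.0739). Without SW female 81, Nr1d1 was called in both, with 531 genes called after SW and 393 after DW. Animal 81 was the SW female that overlapped the males, so leaving it out makes a difference easier to call. It is in neither DW group, and it bears on the DW fit only through the spread shared by all groups. These calls are therefore no separate support for a difference.

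Nr1d2, the second REV-ERB gene, was 64.5, 46.7, 44.3 and 47.9 in SW males and 33.2, 29.7, 30.7 and 33.6 in SW females, with no overlap. The difference of -0.65 (SE 0.222, limma adjusted p 0.158) was not called. Tef also did not overlap, at 42.5 to 69.3 in SW males and 35.5 to 40.5 in SW females (-0.49, limma adjusted p 0.495). As above, the share of all genes without overlap was not worked out. In DW animals Dbp was 10.9 to 14.3 in males and 6.32 to 10.2 in females (-0.66, limma adjusted p 0.368).

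Cry2 differed by -0.41 in DW animals (SE 0.121, limma adjusted p 0.074), with 37.3 to 49.5 in males and 29.4 to 39.4 in females. It was called by DESeq2. Of the other repressors and output factors 1 of 4 was called, Bhlhe41 (DEC2, a repressor of E-box activity), higher in females by 1.39 after SW (limma adjusted p 0.00588) and 1.16 after DW (limma adjusted p 0.0433). Of the feeding and fasting list 1 of 12 (Pck1) was lower in females after SW and 2 (Pck1 and Lpin1) after DW, 1 of 10 immediate early genes (Fos) was higher after SW, and 1 of 10 glucocorticoid genes (Sgk1) was lower after DW. All 8 mammary epithelial markers were higher in females at day 28, and their sum was at most 41.0 in any male. The part of mammary tissue in these differences was not tested.

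Variation between animals of the same group was then compared between genes, each animal's log2 value being taken relative to its group mean. Dbp served as the reference, and 12 relations over 24 animals were tested by permutation within groups, with adjusted p over the 12. Dbp rose and fell with Ciart (Pearson's r 0.788, permutation p 0.00203, adjusted 0.0104; Spearman's rho 0.673, permutation p 0.00347, adjusted 0.0162) and with Tef (r 0.771, permutation p 0.00348, adjusted 0.0104; rho 0.645, permutation p 0.00594, adjusted 0.0178). It ran opposite to the activator Arntl (r -0.809, permutation p 0.00056, adjusted 0.00672; rho -0.695, permutation p 0.00179, adjusted 0.0162) and to Cry1 (r -0.719, permutation p 0.00284, adjusted 0.0104; rho -0.685, permutation p 0.00404, adjusted 0.0162).

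These 4 relations kept an adjusted p under 0.05 when the 2 animals farthest in Dbp, day 21 females 36 and 56, were left out, with r of 0.619, 0.626, -0.642 and -0.568 for Ciart, Tef, Arntl and Cry1. Per3 (r 0.725, permutation p 0.00769, adjusted 0.0185; rho 0.540, permutation p 0.023, adjusted 0.0394) fell to r 0.467 (adjusted permutation p 0.102) without them, and so rested on those animals. The same held for Per2 (0.547 to 0.386, adjusted permutation p 0.0438 to 0.102), Nr1d2 (0.615 to 0.269, 0.0438 to 0.284) and Npas2 (-0.648 to -0.362, 0.0417 to 0.206). Per1 went from r 0.393 to 0.478 while its adjusted permutation p went from 0.0417 to 0.0601.

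Cry2 (r 0.389, adjusted permutation p 0.0438) was at 0.519 without them (adjusted permutation p 0.0253). Nr1d1 (r 0.378, adjusted permutation p 0.151) and Clock (r -0.369, adjusted permutation p 0.0527) did not pass over 24 animals. Both passed without the 2 animals, Nr1d1 at r 0.444 (adjusted permutation p 0.0369) and Clock at -0.592 (adjusted permutation p 0.0253).

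Within runs of animal numbers (21 animals with a run partner in their group) the relation of Dbp was 0.830 with Ciart, 0.826 with Tef and 0.809 with Per2, each with an adjusted permutation p of 0.0501, and -0.823 with Arntl (adjusted permutation p 0.0539). With Cry1 it was -0.049 within runs (adjusted permutation p 0.958), so the relation to Cry1 did not hold within runs.

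By age, the 8 day 21 animals gave r of 0.973 with Per3, 0.902 with Ciart, 0.874 with Tef and -0.957 with Arntl (adjusted permutation p 0.0414, 0.0484, 0.0784 and 0.0414). The 16 day 28 animals gave 0.198, 0.538, 0.560 and -0.448 (adjusted permutation p 0.661, 0.168, 0.168 and 0.168). At day 28 the relations to Cry1 (-0.683, adjusted permutation p 0.0182) and Clock (-0.588, adjusted permutation p 0.0235) passed. The relations of Dbp to Per3, Ciart and Arntl thus passed at day 21 and not at day 28. The difference between the ages was not tested.

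**Figure D3:**
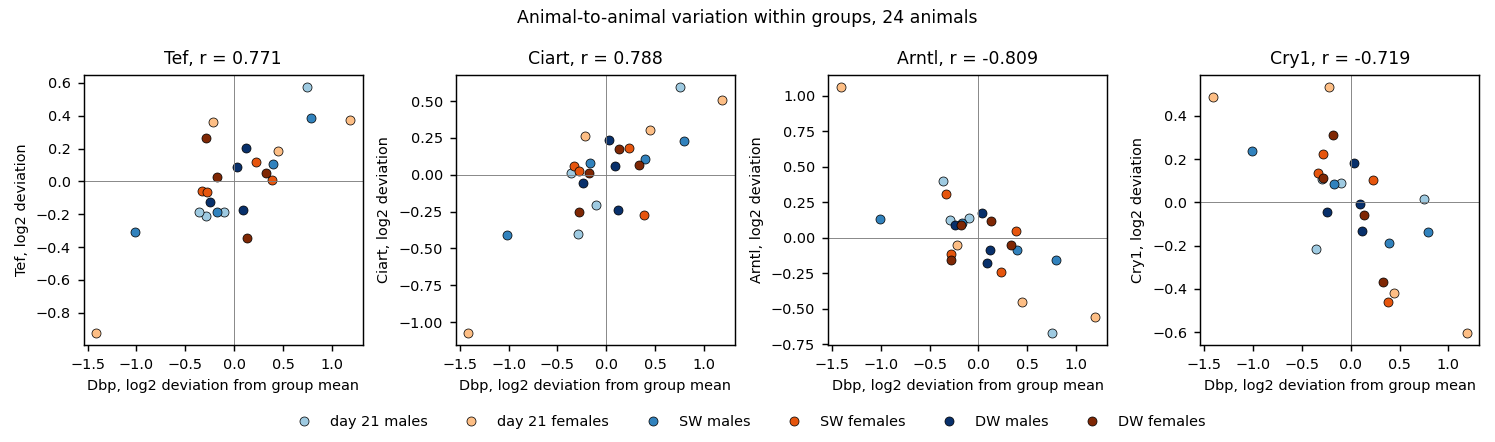
Deviation from the group mean in log2(value + 1) of Tef, Ciart, Arntl and Cry1 (y axes) against that of Dbp (x axis), 1 point per animal, coloured by group, for 24 animals. Tef and Ciart rise with Dbp (r 0.771 and 0.788) and Arntl and Cry1 fall (r -0.809 and -0.719), with 1 day 21 female at the far left of each panel.

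Day 21 male 54 and day 21 female 36 lay on opposite sides of their group means in these genes. Male 54 had the highest Dbp (33.3), Tef (100.1), Per3 (45.7) and Ciart (3.48) of its group with the lowest Arntl (11.9). Female 36 had the lowest Dbp (6.05), Tef (44.7), Per3 (18.5), Per2 (12.7), Nr1d2 (25.4) and Ciart (0.856) of its group with the highest Arntl (35.6) and Npas2 (11.3).

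Among members, the closest pair was Per3 and Tef (r 0.87 over 24 animals), followed by Dbp and Ciart (0.79), Dbp and Tef (0.77) and Tef and Ciart (0.77). Nr1d1 was close to none of these, with r of -0.12 with Tef and 0.08 with Per3, and was most opposed to Cry1 (-0.73). Per1 had r of 0.04 with Tef and 0.50 with Per2. Points in these relations share libraries, and they are given as descriptions.

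**Figure D4:**
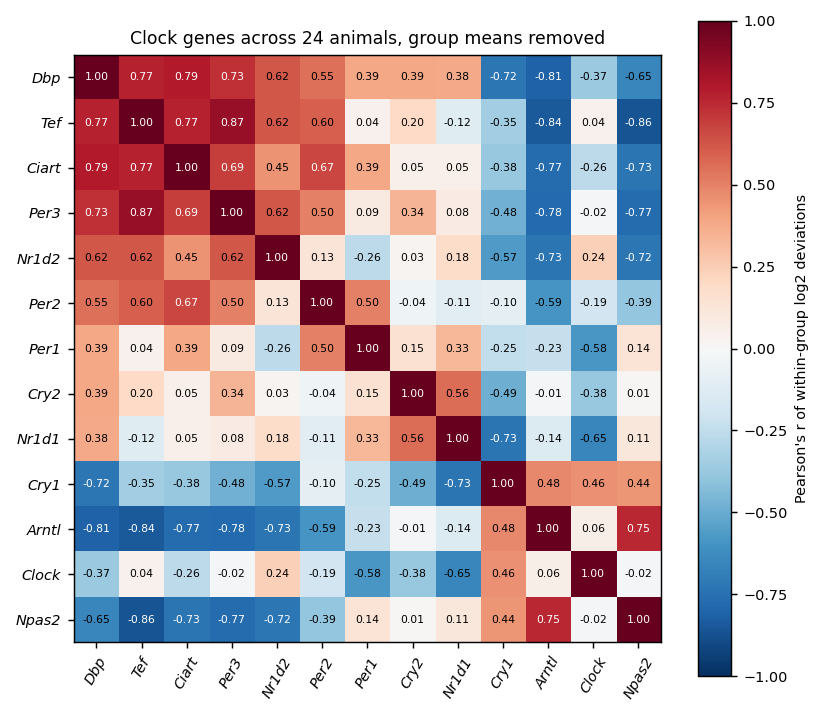
Pearson's r between the within-group log2 deviations of the 10 members and 3 activators over 24 animals, as a colour scale from -1 to 1 with each r printed. Dbp, Tef, Ciart and Per3 form a block with r of 0.69 to 0.87, opposed to Arntl and Npas2, while Per1, Cry2 and Nr1d1 lie outside it.

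The genes most like each member were taken from all with a mean value of at least 10, over the same 24 animals. For Dbp, among 9133 genes, the 5 with the highest r were Tef (0.771), Per3 (0.725), Slc5a6 (0.719), Sdc4 (0.712) and Cdc25b (0.656). The 5 with the lowest were Arntl (-0.809), Smoc1 (-0.759), Rpap2 (-0.721), Cry1 (-0.719) and Nsun2 (-0.714). The activator Arntl was thus the most opposed of these 9133 genes, and Tef the most alike. Ciart was not ranked because its mean value is under 10, and its r with Dbp (0.788) was above that of Tef.

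Clock genes also led the lists of Per3, Tef and Ciart. Per3 was most like Tef (0.867), Dbp (0.725), Hlf (0.651), Nr1d2 (0.618) and Hp (0.617). Tef was most like Per3, Dbp, Slc5a6 (0.757), Atl2 (0.698) and Hk2 (0.659), and Ciart most like Dbp, Tef, Sdc4 (0.752), Per3 and Hk2 (0.681). Ciart, too low to be ranked in the lists of Tef and Per3, had r of 0.77 with Tef and 0.69 with Per3.

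The remaining members had no other member among their 5. Per2 was most like Fkbp5 (0.908) and Map3k6 (0.888), and Per1 most like Zfp36 (0.927), Mark2 (0.904) and Jdp2 (0.892). Nr1d1 was led by Unc5a (0.852), Nr1d2 by Snx13 (0.741), Cry1 by Nsun2 (0.850) and Cry2 by Arhgap24 (0.861).

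The relation of each library's gene values to transcript GC content moved with some members. For each library it was measured as Spearman's correlation, across genes, between deviation from the mean of the 24 libraries and GC content. This measure was added after the values were seen, and group means were subtracted from it only for the relations with members. In DW females it was 0.493 and 0.404 in animals 76 and 77 and -0.477 and -0.650 in animals 82 and 83, the same split as Per1 and Nr1d1. Mitochondrial genes took 23.64% and 19.21% of values in animals 76 and 77 and 13.21% and 13.72% in animals 82 and 83. Over 24 animals and 10 relations, Per1 had r 0.713 (permutation p 0.0101, adjusted 0.0506; rho 0.690, adjusted permutation p 0.0947), which was 0.629 (adjusted 0.195) without the 2 farthest animals.

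Nr1d1 had r 0.553 (adjusted permutation p 0.113) and Nr1d2 -0.492 (adjusted permutation p 0.0506). Dbp (0.232), Ciart (0.054), Per3 (-0.091) and Tef (-0.110) had r nearer 0, and none of the 10 passed after adjustment. The part of GC content or of the mitochondrial share in the Per1 and Nr1d1 differences was not tested.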

How the data were processed

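Poly(A) RNA of inguinal fat from 24 mice was sequenced after KAPA mRNA HyperPrep library preparation on a NovaSeqXPlus, per the labels' protocols. The submitters' processing notes name fastp, HISAT2, featureCounts, DESeq2 1.38.3 and mm10, but only 2.23% of 16095 deposited gene starts equal those of GENCODE M21 on GRCm38, so no gene positions from the table are printed. The deposited unit is a signal made by the authors as reads divided by 1 factor per sample, and 100% of values were whole multiples (tolerance 0.01), so whole read counts could be recovered from the deposited values. After 90 repeated rows were left out, 16118 genes remained. The authors also deposited log2 fold changes and adjusted p-values for 15 comparisons, used only where their table is named. Groups follow the description and age labels, because the p21 titles name day 28 instead.

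Changes are on log2(value + 1), which understates those of low genes. limma 3.58.1 (R 4.3.3, variance trend) was fitted to all 24 animals and 6 groups with 18 residual degrees of freedom, on 16005 genes kept by filterByExpr (minimum count 10), with Benjamini-Hochberg adjustment over all of them and a threshold of 0.05. The design called for limma on normalised values, with edgeR 4.0.16 and DESeq2 1.42.0 on the recovered reads as alternatives. The limma and edgeR steps were tested on simulated data, and the DESeq2 step was not. Correlations used 100000 permutations within groups (smallest possible p 1e-05). Intervals are at 95% and are for the difference between group means, from limma's moderated standard error. They do not give the range of single animals. Other alternatives were no filter, a pseudocount of 0.1, the compared groups only, tissue scores or the run of animal numbers as covariates, and leaving out each animal. In the run fit SW male 124 has a coefficient of its own, so SW males there rest on 3 animals. Leaving out animals 53, 84 and 36 together was added after seeing the data.

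The members, the gene lists and the rule for named genes were chosen with earlier results of these data known. The rule names all 10 members, Arntl, Clock and Npas2, list genes called in at least 1 comparison, the 5 genes most like each member and, for Dbp, the 5 least alike. A further list gene is not reported here. Exon lengths and transcript GC content came from GENCODE M21, and promoters from RefSeq (GRCm38.p6).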

Additional observations from a re-analysis of the deposited data

Results flagged for a closer look

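In 8 of 60 groups of 4 animals (10 members in 6 groups) the highest or lowest animal stood apart from the other 3 by more than Dixon's 95% critical gap. For a single gene chance gives about 1 group in 20. The 60 are not independent, because the 10 members were read in the same animals. The share of all genes passing this gap was not worked out, so the count is a description and no excess is claimed for these members. Values are log2(value + 1).

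Day 21 male 54 was high in 3 members. Its Per3 was 5.54 with the others at 4.78 to 4.86, its Cry2 was 5.47 with the others at 5.23 to 5.26, and its Tef was 6.66 with the others at 5.88 to 5.90. Day 21 female 36 was low in 2. Its Tef was 5.51 with the others at 6.62 to 6.81, and its Ciart was 0.89 with the others at 2.23 to 2.47.

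SW female 81 had Nr1d1 at 7.64 with the others at 5.94 to 6.11, and Cry1 at 3.20 with the others at 3.77 to 3.88. This animal alone carries a number from 81 to 87 in its group, the others being 73 to 75. SW male 78 had Per2 at 4.47 with the others at 3.71 to 3.82, and it alone carries a number from 73 to 80 in its group.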

How the results depend on the processing

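The count of members called for weaning in either sex, for age in DW males, for sex at day 21, for the interactions of sex with weaning and with age after DW, and between runs was 0 in all settings run (33 a comparison, 29 for the runs). The Tef change in SW females was called in all 33 and that of Per3 in 32, the exception being tissue covariates. Per2 lost its call in 8 and Ciart in 10 of 33. For SW females 4 members became 2 with the compared groups only, 1 with tissue covariates, and 2 to 6 when 1 animal was left out (2 without day 21 female 30, 55 or 56 or SW female 73, 74 or 81, and 6 without day 21 female 36). Genes called in SW females were 1860 of 16005, and 2406, 444 and 1394 to 2234 in these settings. The 4 became 5, with Dbp added, by edgeR and TMM (1472 genes called) and by edgeR and DESeq2 size factors (1434). The same 5 were called by DESeq2 (1995 of 15995) and with the run covariate (1944). With a pseudocount of 0.1 there were 3 (1698). For DW females 2 became 4 with edgeR and TMM, 4 with edgeR and DESeq2 size factors, 5 with DESeq2, 0 with the compared groups only, 7 with tissue covariates, 6 with the run covariate, 5 without animals 53, 84 and 36, and 0 to 5 when 1 animal was left out. It was 0 without day 21 female 30, 55 or 56, 1 without DW female 82 or 83, 4 without DW female 76, and 5 without day 21 female 36 or DW female 77. Genes called in DW females were 1938 of 16005, and 1666, 1680, 2376 (of 15374), 495, 2248, 2227, 1816 and 1071 (without DW female 83) to 3123 (without DW female 76) in the same order. For SW males 0 became 1 (Nr1d1) with the compared groups only, where 822 of 16005 genes were called in place of 1901.

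For sex after SW 0 became 1 with the compared groups only (Nr1d2), 1 without animals 53, 84 and 36 (Dbp), and 0 to 1 when 1 animal was left out (1 without SW female 81). Genes called for sex after SW were 567 of 16005, and 607, 556 and 531 (without SW female 81) in the same order. For sex after DW the count became 1 with DESeq2 and 0 to 2 when 1 was left out (2 without SW female 81 or DW female 77, 1 without DW female 76, DW male 86 or day 21 female 30). Genes called for sex after DW were 394 of 16005, and 848 (of 15995), 393, 1507, 1829, 269 and 435 in the same order. For sex by age after SW the count became 1 (Tef) without animals 53, 84 and 36, and 0 to 1 when 1 was left out (1 without day 21 female 36). Genes called for it were 165 of 16005, and 121 and 172 in these settings. The cause of these changes in count was not tested. No result was reversed.

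Of the relations with Dbp, those of Cry1, Tef, Ciart and Arntl had an adjusted permutation p under 0.05 in the 27 settings run over all groups, but not in all smaller sets of animals. It was 0.0501 for Tef and Ciart, 0.0539 for Arntl and 0.958 for Cry1 within runs, 0.168 for Tef, Ciart and Arntl at day 28, 0.0784 for Tef and 0.229 for Cry1 at day 21, 0.0552 for Ciart and 0.273 for Cry1 in males, and 0.253, 0.147 and 0.136 for Tef, Ciart and Arntl in females. Without the 2 farthest animals r was 0.478 for Per1, 0.386 for Per2, 0.467 for Per3, 0.444 for Nr1d1, 0.269 for Nr1d2, -0.592 for Clock and -0.362 for Npas2. Leaving out 1 animal gave r of 0.311 to 0.490 for Per1, 0.298 to 0.658 for Per2, 0.529 to 0.822 for Per3, 0.326 to 0.568 for Cry2, 0.261 to 0.528 for Nr1d1, 0.386 to 0.707 for Nr1d2, -0.563 to -0.303 for Clock and -0.728 to -0.363 for Npas2. No paired analysis was possible because animal numbers are not shared between groups. The fewest reads were those of Ciart (54 to 497 per library), where depth limits precision most.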
